A study of Mus musculus with 57 samples.

Results

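Small leucine-rich proteoglycans (SLRPs) are secreted proteins of the extracellular matrix, and 8 of them were followed here by gene symbol: Dcn, Bgn, Aspn, Lum, Fmod, Prelp, Omd and Ogn, out of 52853 genes in the count tables. The tissues were inguinal white adipose tissue (WAT) and brown adipose tissue (BAT) of male C57BL/6J mice, either wild-type (WT) or homozygous for the R707W change of mitofusin 2 (Mfn2 knock-in, KI). Mitofusin 2 is a protein of the outer mitochondrial membrane that joins mitochondria together. The knock-in was made by CRISPR-Cas9 in fertilised oocytes, is present in all tissues, carries silent changes upstream of the codon, and was kept as a line re-derived from frozen embryos. From 5 weeks of age the mice ate high-fat diet (HFD, 45% of kcal as fat) or chow for 6 months. Bulk RNA sequencing covered inguinal WAT on HFD (8 WT and 8 KI mice), inguinal WAT on chow (7 WT and 6 KI) and BAT on HFD (6 WT and 6 KI), which makes 41 columns of counts, 1 per mouse in each tissue. The 57 libraries include 2 technical replicates for each mouse with inguinal WAT on HFD, and the tables hold these as 1 column. The sources used here do not say whether the BAT and inguinal WAT came from the same mice. Each of the 41 columns is counted as a separate mouse below.

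An SLRP has a small protein core of leucine-rich repeats, most often with 1 or a few chondroitin, dermatan or keratan sulphate chains. The cores bind collagen fibrils and influence their diameter and spacing, and some also bind growth factors and receptors at the cell surface. In adipose tissue they are made mainly by fibroblasts and other stromal cells rather than by adipocytes. Decorin (Dcn), biglycan (Bgn) and asporin (Aspn) form class I. Lumican (Lum), fibromodulin (Fmod), prolargin (Prelp) and osteomodulin (Omd) belong to class II, and osteoglycin (Ogn) to class III.

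In GRCm38 coordinates the members lie in 4 places. Dcn (ENSMUSG00000019929, chromosome 10, 97479609 to 97518143, plus strand) is next to Lum (ENSMUSG00000036446, chromosome 10, 97565128 to 97572703, plus strand). Aspn (ENSMUSG00000021388, chromosome 13, 49544443 to 49567565), Omd (ENSMUSG00000048368, 49582462 to 49592822) and Ogn (ENSMUSG00000021390, 49608046 to 49624501) follow each other on the plus strand inside Cenpp, a gene of the opposite strand. Prelp (ENSMUSG00000041577, chromosome 1, 133910304 to 133921414, minus strand) is near Fmod (ENSMUSG00000041559, chromosome 1, 134037254 to 134048277, plus strand). Bgn (ENSMUSG00000031375) is on chromosome X, 73483602 to 73495933, plus strand. The strand setting of the read counting is not given in the sources used here, so reads of overlapping opposite genes cannot be told apart. Cenpp had 14 to 277 counts per mouse and shares 7 exonic bases with Aspn and 0 with Omd and Ogn. Gm15851, opposite to Prelp, had 194 to 7927 counts and shares 350 exonic bases, or 9.68% of those of Prelp.

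Total counts were 17572752 to 25680411 per mouse in inguinal WAT on HFD, 8668279 to 11720458 on chow and 8042591 to 10522554 in BAT. The 6 brown adipocyte markers summed to 9322 to 16112 CPM, that is counts scaled to the size of the library, in BAT and to at most 492 CPM in inguinal WAT. Mfn2 itself had median CPM of 155 in WT and 206 in KI inguinal WAT on HFD, 192 and 231 on chow, and 348 and 439 in BAT. A point change need not alter the RNA level, so these values do not check the genotype labels. In 11 of the 41 mice the summed CPM of a marker list of another cell type was over 10 times the median of their group and over 100 CPM. For lymphocyte markers these were HFD WT mice 2 and 6 and KI mouse 2, and chow KI mice 1 and 3. For skeletal muscle markers they were HFD KI mice 3 and 5, chow KI mouse 4 (57702 CPM) and BAT WT mice 1 and 2, and for epithelial markers chow WT mouse 4. Results are given with all mice. Values without these 11 are added for the members' fold changes, the ratios, the closest correlations and the calls in the lists.

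Measured per kb of exon, Prelp was the most abundant member in all 6 groups, and Fmod and Omd were the lowest. In WT inguinal WAT on HFD the mean CPM per kb was 437 ± 82.3 (SD, n = 8) for Prelp, 113 ± 29.6 for Dcn, 62.6 ± 8.10 for Bgn, 36.2 ± 12.1 for Lum, 36.1 ± 4.76 for Aspn and 24.6 ± 4.99 for Ogn. In the same mice Fmod was at 3.20 ± 1.07 and Omd at 0.472 ± 0.149 CPM per kb. The range over mice of Prelp lay above that of Dcn in 5 of the 6 groups, the exception being chow KI. Lum and Aspn were neighbours that did not separate in HFD WT, since Lum was the higher of the pair in 5 of 8 mice. Lum was above Ogn in 8 of 8 HFD WT mice and below Ogn in 8 of 8 HFD KI mice, where the mean of Lum was 13.8 ± 3.45 CPM per kb. Together the members took 0.214 to 0.380% of counted reads in HFD WT and 0.240 to 0.338% in HFD KI. Their share was 0.159 to 0.262% in chow WT, 0.0914 to 0.194% in chow KI, 0.0545 to 0.0924% in BAT WT and 0.0496 to 0.0666% in BAT KI.

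**Figure D1:**
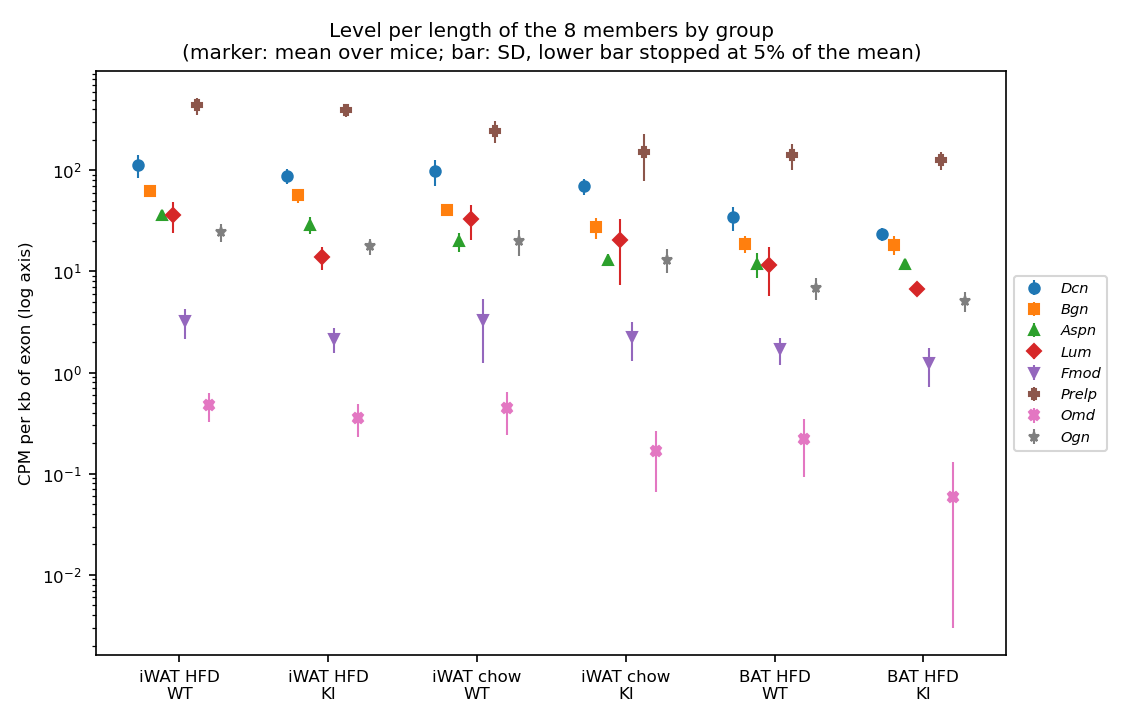
Mean CPM per kb of exon (log axis) of the 8 SLRP genes in each of the 6 groups, with the SD over mice as bars. Prelp is at the top of every group and Omd at the bottom, and Lum moves from above Ogn in HFD WT to below it in HFD KI.

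The first question was which members differed between KI and WT mice in inguinal WAT on HFD. Lum, a keratan sulphate proteoglycan that limits the thickness of collagen fibrils, was the member that fell. Its CPM ran from 57.4 to 143 in the 8 WT mice (median 84.3) and from 20.9 to 47.4 in the 8 KI mice (median 35.1). Every KI mouse was below every WT mouse. The fold of KI over WT was 0.383, a log2 fold change of -1.39 with a 95% interval of -1.81 to -0.96 (edgeR quasi-likelihood test, adjusted p = 9.794e-05). A call meant an adjusted p below 0.01. Lum was called in all 16 refits without a single mouse, at -1.47 to -1.26. Without the 5 HFD mice that stand apart the log2 fold change was -1.30 (edgeR, adjusted p = 0.0008458). Of the 16471 genes tested in this comparison, 5.24% were called lower and 2.43% had every KI mouse below every WT mouse; among the members, Lum alone did both.

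The other 7 members on HFD had overlapping groups and did not pass the threshold. Ogn, a class III member, ran from 45.5 to 83.2 CPM in WT (median 61.1) and from 30.1 to 55.3 in KI (median 49.3). Its log2 fold change was -0.47 ± 0.13 (SE; edgeR, adjusted p = 0.0153), and 3 of 8 KI mice were below all WT mice. Dcn, which carries a single chondroitin or dermatan sulphate chain, ran from 402 to 886 CPM in WT (median 723) and from 397 to 639.7 in KI (median 503). The log2 fold change of Dcn was -0.36 ± 0.15 (edgeR, adjusted p = 0.107). Bgn, the closest relative of Dcn, ran from 310.2 to 429 CPM in WT (median 399) and from 277 to 446 in KI (median 335), a log2 fold change of -0.14 ± 0.10 (edgeR, adjusted p = 0.360). The KI range of Bgn thus covered the whole WT range. Aspn, which has an aspartate-rich stretch and no typical chain, ran from 63.1 to 103 CPM in WT (median 85.1) and from 49.3 to 87.7 in KI (median 71.2). Its log2 fold change was -0.31 ± 0.11 (edgeR, adjusted p = 0.0472). Fmod, a relative of Lum that binds the same region of collagen, ran from 6.43 to 16.6 CPM in WT (median 11.1) and from 5.46 to 11.4 in KI (median 6.32), with a log2 fold change of -0.55 ± 0.20 (edgeR, adjusted p = 0.0563). Prelp, a basic protein that links basement membrane to collagen, ran from 1095 to 1969.7 CPM in WT (median 1681) and from 1113 to 1708 in KI (median 1465). The log2 fold change of Prelp was -0.15 ± 0.12 (edgeR, adjusted p = 0.440). Omd, best known from bone, was at 13 to 38 counts in WT and 11 to 37 in KI, with a log2 fold change of -0.39 ± 0.25 (edgeR, adjusted p = 0.284). Without the mice that stand apart the values were -0.35 for Ogn, -0.18 for Dcn, -0.16 for Bgn, -0.20 for Aspn, -0.44 for Fmod, -0.07 for Prelp and -0.25 for Omd, and none of these was called.

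**Figure D2:**
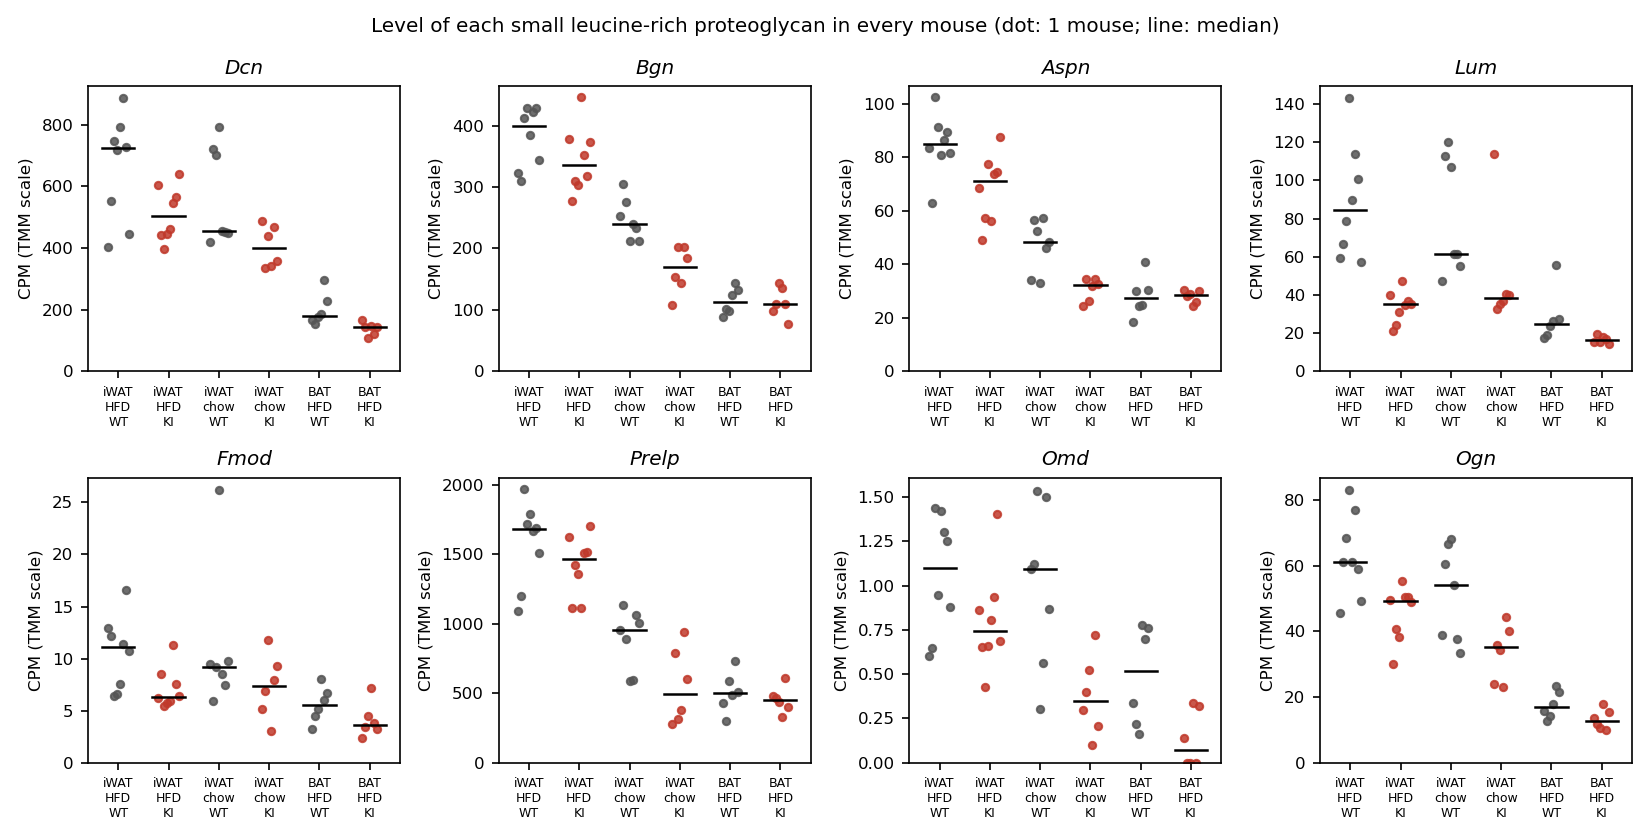
CPM of each member in every mouse (linear axis, a panel per gene; grey WT, red KI; dot, 1 mouse; line, group median; iWAT, inguinal WAT). For Lum on HFD the 8 KI mice sit between 20.9 and 47.4 CPM, all below the 8 WT mice; 1 chow KI mouse, at 114 CPM, stands far above the other 5.

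On chow, where 14629 genes and 7 members were tested, edgeR called no member, against 1.22% of genes called lower; 5 members had an unadjusted p below 0.05, against 24.5% of genes, and DESeq2 called 2 (Bgn and Aspn), against 6.69%. Bgn came closest to a clear separation. Its CPM ran from 212 to 304 in the 7 WT mice (median 239.9) and from 108 to 203 in the 6 KI mice (median 169), and every KI mouse was below every WT mouse, as for 1.47% of genes tested. The log2 fold change of Bgn was -0.58 ± 0.14 (edgeR, adjusted p = 0.0233). Aspn ran from 33.1 to 57.2 CPM in WT (median 48.5) and from 24.4 to 34.7 in KI (median 32.2), a log2 fold change of -0.61 ± 0.14 (edgeR, adjusted p = 0.0149). Only the upper end of the Aspn KI range met the WT range, and 4 of 6 KI mice were below all WT mice.

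Lum on chow depended on a single mouse. It ran from 47.1 to 120.1 CPM in WT (median 61.6) and from 32.4 to 114 in KI (median 38.2), but the next highest KI mouse after mouse 1 was at 40.3 CPM. The log2 fold change was -0.71 ± 0.33 with all mice (edgeR, adjusted p = 0.210) and -1.15 without KI mouse 1 (edgeR, adjusted p = 0.0156). Chow KI mouse 1 is also one of the mice with high lymphocyte markers (128 CPM summed), whose part in its Lum level was not tested. Dcn ran from 419 to 792 CPM in WT (median 453) and from 334 to 487 in KI (median 398), with a log2 fold change of -0.50 ± 0.18 (edgeR, adjusted p = 0.1004). Ogn ran from 33.4 to 68.2 CPM in WT (median 54.1) and from 23.0 to 44.4 in KI (median 35.1), with a log2 fold change of -0.62 ± 0.21 (edgeR, adjusted p = 0.0804). Prelp ran from 586 to 1133 CPM in WT (median 957) and from 279 to 945 in KI (median 493), with a log2 fold change of -0.69 ± 0.28 (edgeR, adjusted p = 0.149). For Prelp 3 of 6 KI mice were below all WT mice, and the highest KI mouse was near the WT median. Fmod ran from 5.95 to 26.2 CPM in WT (median 9.21) and from 3.04 to 11.8 in KI (median 7.40), with a log2 fold change of -0.58 ± 0.36 (edgeR, adjusted p = 0.348). Its highest WT value was that of mouse 4, and without it the log2 fold change of Fmod was -0.18 (edgeR, adjusted p = 0.716). Omd, at 4 to 20 counts in WT and 1 to 9 in KI, was below the filter on low counts and was not tested. Without the 4 chow mice that stand apart the log2 fold changes were -1.03 for Lum, -0.47 for Dcn, -0.49 for Bgn, -0.54 for Aspn, -0.28 for Ogn, -0.27 for Prelp and -0.07 for Fmod, and no member was called; the KI group then held 3 mice.

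In BAT on HFD, where 13267 genes and 7 members were tested, edgeR called no member, against 0.475% of genes called lower; 3 members had an unadjusted p below 0.05, against 24.4% of genes, and DESeq2 called 1 (Dcn), against 4.67%. Lum ran from 17.5 to 55.8 CPM in the 6 WT mice (median 24.9) and from 14.3 to 19.6 in the 6 KI mice (median 16.1). The log2 fold change of Lum was -0.80 ± 0.23 (edgeR, adjusted p = 0.0451), and -0.49 without WT mouse 5, the highest (edgeR, adjusted p = 0.0492). Dcn ran from 155 to 296 CPM in WT (median 180.1) and from 109 to 165 in KI (median 143), a log2 fold change of -0.57 ± 0.15 (edgeR, adjusted p = 0.0328). For Dcn 5 of 6 KI mice were below all WT mice, and for Lum 4 of 6, so neither separated the groups fully; 1.05% of genes tested did. Ogn ran from 12.8 to 23.5 CPM in WT (median 16.8) and from 9.89 to 17.8 in KI (median 12.7), with a log2 fold change of -0.45 ± 0.18 (edgeR, adjusted p = 0.142). Fmod ran from 3.20 to 8.07 CPM in WT (median 5.57) and from 2.37 to 7.17 in KI (median 3.60), with a log2 fold change of -0.48 ± 0.27 (edgeR, adjusted p = 0.297). Bgn, Prelp and Aspn overlapped almost wholly. Their median CPM in WT and KI were 113 and 109.6 for Bgn, 499 and 453 for Prelp, and 27.4 and 28.5 for Aspn, with log2 fold changes of -0.06 ± 0.15, -0.20 ± 0.18 and -0.05 ± 0.15. Omd had 1 to 5 counts per WT mouse and 0 to 3 per KI mouse and was not tested. Without WT mice 1 and 2, which stand apart for muscle markers, the log2 fold change was -1.03 for Lum (edgeR, adjusted p = 0.0133) and -0.69 for Dcn (edgeR, adjusted p = 0.0271). It was -0.56 for Ogn, -0.67 for Fmod, -0.17 for Bgn, -0.37 for Prelp and -0.13 for Aspn, and no member was called.

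**Figure D3:**
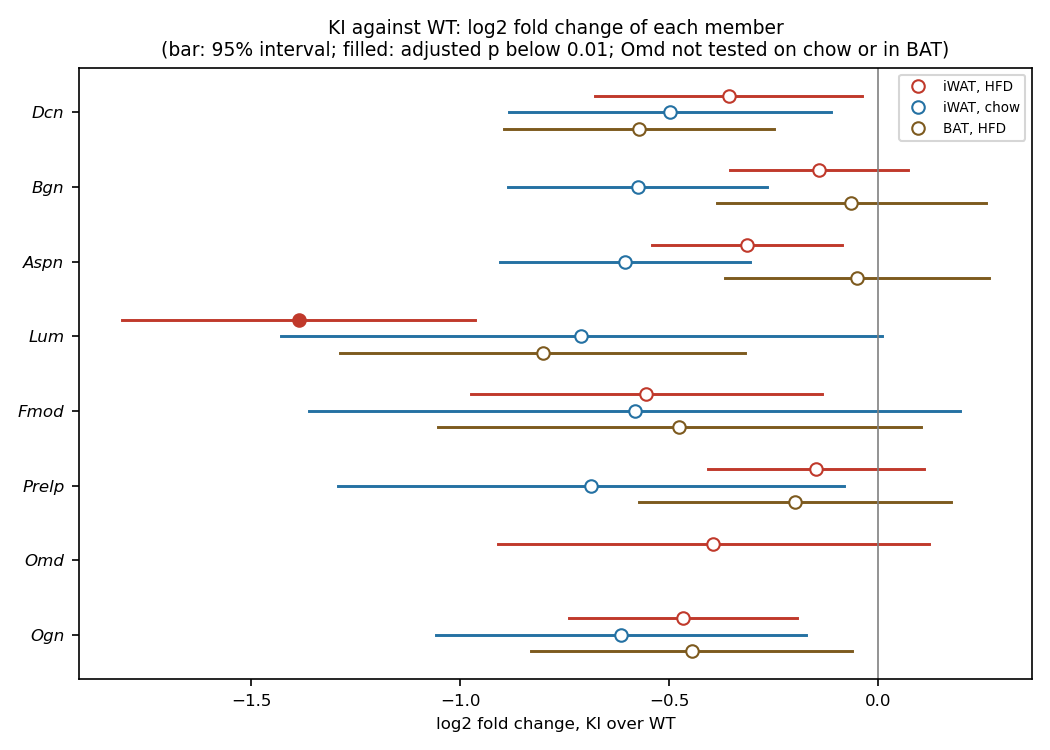
Log2 fold change of KI over WT for each member with its 95% interval, in inguinal WAT on HFD, inguinal WAT on chow and BAT on HFD; filled points passed adjusted p below 0.01. Lum on HFD, at -1.39, is the filled point, and all estimates lie below 0.

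The fitted log2 fold change of KI over WT was below 0 for 8 of 8 members tested on HFD, 7 of 7 on chow and 7 of 7 in BAT. The medians over the members were -0.38, -0.61 and -0.45, and the medians over all genes tested were 0.0055, -0.00011 and -0.013. On HFD 5 of 8 members had an unadjusted p below 0.05 in edgeR, against 32.9% of all genes tested, and DESeq2 called 2 members (Lum and Ogn), against 14% of genes. In bulk tissue, fewer cells of a type and less RNA per cell cannot be told apart. Markers of adipose fibroblasts moved in the same direction: of 13, those below 0 numbered 11 on HFD, 10 on chow and 11 in BAT, at median log2 fold changes of -0.18, -0.34 and -0.47. Dpt, which encodes the matrix protein dermatopontin, was the marker called lower in inguinal WAT on HFD (-0.75) and on chow (-1.28), and 3 markers were called lower in BAT, led by Pi16 (-1.62). The summed CPM of the 13 markers was 1591 to 2413 in HFD WT and 1332 to 1882 in HFD KI. On chow it was 1564 to 3070 in WT and 1394 to 1843 in KI, and in BAT 604 to 944 in WT and 588 to 698 in KI, with no marker at 0. Markers of some other cell types fell with the members, and others were mixed or rose. Adipocyte markers were below 0 in 5 of 10 on HFD, 5 of 10 on chow and 6 of 10 in BAT (medians 0.055, -0.00013 and -0.11). On HFD edgeR called Lipe and Pnpla2 higher and Adipoq and Lep lower, and DESeq2 called the same 4. On chow and in BAT edgeR called 0 adipocyte markers. DESeq2 called Adipoq and Lep on chow and Adipoq and Cidec in BAT. Schwann cell markers were below 0 in 1 of 5, 1 of 5 and 4 of 5 (medians 0.32, 0.43 and -0.37). Brown adipocyte markers were below 0 in 0 of 3, 1 of 3 and 0 of 6 (medians 0.56, 2.01 and 0.30). Of these edgeR called Cidea higher on HFD and on chow and 0 in BAT, and DESeq2 called 3, 2 and 1. Macrophage markers were below 0 in 6 of 6 in each comparison, with medians of -0.34, -0.57 and -0.45. Endothelial markers were below 0 in 6 of 6 on HFD, 5 of 6 on chow and 4 of 6 in BAT (medians -0.19, -0.31 and -0.20), and mural markers in 3, 5 and 6 of 6 (medians 0.0012, -0.28 and -0.35). Of the macrophage, endothelial and mural markers edgeR called 0 in each comparison. On HFD, chow and BAT the markers with an unadjusted p below 0.05 were 0, 1 and 0 for macrophages, 2, 4 and 1 for endothelium and 1, 2 and 2 for mural cells, and DESeq2 called Tie1 on chow and Tek in BAT. The part of the fibroblast, macrophage, endothelial and mural markers in the members' values was not tested. Without the mice that stand apart the medians over the members were -0.23, -0.48 and -0.56, those of the fibroblast markers -0.24, -0.48 and -0.68 and those of the macrophage markers -0.56, -0.31 and -0.68, and 2 macrophage markers, Adgre1 and Itgam, were then called lower on HFD.

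To describe Lum relative to the other members within a mouse, its CPM was divided by theirs. Lum was put on top of these ratios because it had been seen to fall, so they describe the same values again, and no test was made. On HFD the log2 ratio of Lum to Dcn was -3.24 to -2.33 in the 8 WT mice and -4.41 to -3.29 in the 8 KI mice. Every KI ratio was below every WT ratio, with a mean difference of -1.04. The mean difference was -1.21 relative to Bgn, -0.84 to Fmod, -0.90 to Ogn, -1.22 to Prelp, -1.04 to Aspn and -0.96 to Omd. Relative to the 13 fibroblast markers summed it was -0.98, and relative to 11 fibrillar and associated collagens summed -0.96. All 8 KI mice were below all WT mice relative to Bgn, Ogn and the collagens. Relative to Prelp, Aspn and the fibroblast markers 7 of 8 were, relative to Omd 6 and relative to Fmod 3. These differences, without the mice that stand apart, ran from -1.18 (Prelp) to -0.84 (Fmod).

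The same ratios on chow turned on KI mouse 1. With all mice the mean difference was -0.31 relative to Dcn, and 5 of 6 KI mice were below all WT mice, whose lowest ratio was -3.15; KI mouse 1 was at -2.10. Without that mouse the difference was -0.53 relative to Dcn and all 5 KI mice were below the WT mice. Relative to Bgn it was -0.17 with all mice and -0.57 without KI mouse 1, to Ogn -0.17 and -0.54, and to the fibroblast markers -0.10 and -0.41. Of the 6 KI mice, 1 was below all WT mice relative to Bgn, 4 relative to Ogn and 0 relative to the fibroblast markers. Relative to Prelp the difference was 0.022 with all mice and -0.42 without KI mouse 1, a turn in direction. Leaving out the chow mice that stand apart left 3 KI mice. The differences were then -0.50 relative to Dcn, -0.45 to Bgn, -0.71 to Ogn and -0.67 to Prelp. They were -0.20 relative to the fibroblast markers and -0.19 to the collagens. In BAT the ratio of Lum to Dcn differed by -0.15, to Bgn by -0.63 and to Aspn by -0.70, and without WT mouse 5, the highest for Lum, by -0.046, -0.48 and -0.59. Without BAT WT mice 1 and 2 they were -0.26, -0.76 and -0.85. The remaining BAT differences were -0.18 to Fmod, -0.25 to Ogn, -0.53 to Prelp, -0.45 to the fibroblast markers and -0.040 to the collagens. Without WT mouse 5 these were 0.012, -0.12, -0.42, -0.29 and 0.016. Without WT mice 1 and 2 these were -0.19, -0.37, -0.56, -0.60 and -0.16.

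**Figure D4:**
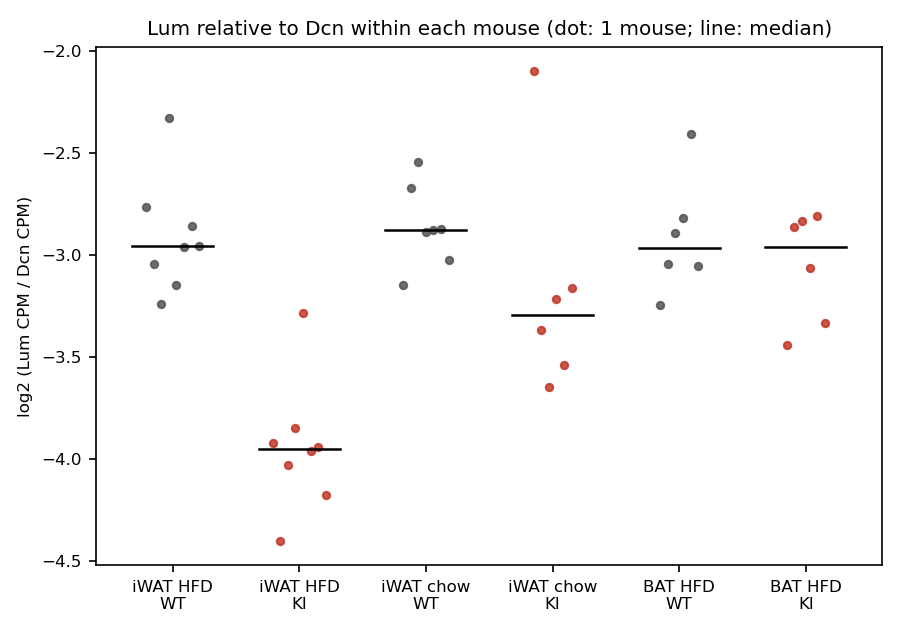
Log2 ratio of Lum CPM to Dcn CPM within each mouse for the 6 groups (grey WT, red KI; dot, 1 mouse; line, median). The 8 HFD KI mice, at -4.41 to -3.29, are all below the 8 HFD WT mice; in BAT the medians of WT and KI are -2.97 and -2.96.

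Whether the KI effect itself differed by diet or depot was tested as an interaction in 1 fit of all 6 groups. These contrasts share the HFD inguinal WAT mice. The fit takes BAT and inguinal WAT columns as separate mice, which the sources used here do not state. Neither edgeR nor DESeq2 called a member, against 0.889% of 16201 genes for diet and 2.46% for depot in edgeR and 2.24% and 4.4% in DESeq2. For Lum the KI effect on HFD minus that on chow was -0.69 ± 0.37 with a 95% interval of -1.44 to 0.07 (edgeR, adjusted p = 0.386), and -0.25 without chow KI mouse 1. The KI effect on Lum in BAT minus that in inguinal WAT was 0.62 ± 0.40, with an interval of -0.19 to 1.42 (edgeR, adjusted p = 0.384). So the call of Lum in inguinal WAT on HFD alone does not show that it differed from the other conditions. For diet, Bgn had 0.43 ± 0.19 (edgeR, adjusted p = 0.253), and it was the 1 member with an unadjusted p below 0.05 for diet, against 15.5% of genes, with 0 for depot, against 22%. Prelp had 0.53 ± 0.29 and Omd 0.97 ± 0.54 for diet, and Omd -1.34 ± 0.70, Bgn 0.12 ± 0.19 and Prelp -0.0086 ± 0.30 for depot. The values of Dcn, Fmod, Ogn and Aspn lay between 0.01 and 0.29 for diet and between -0.18 and 0.31 for depot. Lum had -0.28 for diet and 0.29 for depot without the mice that stand apart, and no member was called in either.

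Between diets, 3 members were higher on HFD in both genotypes, while Lum, Dcn, Fmod, Ogn and Omd were not called in either. Diet coincides with the table and the depth of the libraries, so their parts cannot be told apart. Aspn rose by a log2 fold change of 0.86 ± 0.13 in WT (edgeR, adjusted p = 1.912e-06) and 1.15 ± 0.14 in KI (edgeR, adjusted p = 2.629e-08). All 8 HFD WT mice, at 63.1 CPM or more, were above all 7 chow WT mice, at 57.2 CPM or less. Bgn rose by 0.63 ± 0.13 in WT (edgeR, adjusted p = 0.0002044) and 1.05 ± 0.14 in KI (edgeR, adjusted p = 1.187e-07). The lowest HFD WT mouse was at 310.2 CPM and the highest chow WT mouse at 304. How many of all genes separated the diets fully in WT was not counted, so the separation of Aspn and Bgn may be common. Prelp rose by 0.83 ± 0.20 in WT (edgeR, adjusted p = 0.001251) and 1.36 ± 0.22 in KI (edgeR, adjusted p = 3.517e-06). For Prelp the WT groups overlapped, at 1095 to 1969.7 CPM on HFD and 586 to 1133 on chow. Of all genes tested 12.7% were called higher on HFD in WT and 13.7% in KI. Lum had 0.13 in WT and -0.55 in KI (edgeR, adjusted p = 0.0941), and the KI value was -0.13 without chow KI mouse 1. Dcn had 0.21 and 0.34, Ogn 0.29 and 0.43, Fmod -0.05 and -0.04, and Omd 0.09 and 1.06. All 3 calls were also made in each genotype without the mice that stand apart.

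Gm15851, the transcript opposite to Prelp, also rose on HFD, by 1.70 in WT and 2.06 in KI. Since strand was not stated, the shared part of the reads could belong to either gene. Its log2 fold changes of KI over WT were -0.13, -0.49 and -0.23 in the 3 comparisons, and none was called.

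Promoters of the 3 members called higher on HFD in both genotypes are shown with that of Ogn, the neighbour of Aspn that was not called, from RefSeq (GRCm38.p6). Of the 8 members, 6 had an entry there; Lum and Dcn are named only. Each line gives the 100 bases before the RefSeq start of transcription, 5′ to 3′ on the strand of the gene, with capitals for a CCAAT box (CCAAT) or GC box (GGGCGG) on either strand. The motifs were chosen after the data were seen, and a match is a description of the letters only. The positions are chrX:73483501-73483600 (plus) for Bgn, chr13:49544343-49544442 (plus) for Aspn, chr1:133921402-133921501 (minus) for Prelp and chr13:49607915-49608014 (plus) for Ogn. The RefSeq starts of Prelp and Ogn differ from the gene starts given above, which come from another annotation.
Bgn: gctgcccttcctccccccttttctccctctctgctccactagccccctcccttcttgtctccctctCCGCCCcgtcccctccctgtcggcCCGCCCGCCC
Aspn: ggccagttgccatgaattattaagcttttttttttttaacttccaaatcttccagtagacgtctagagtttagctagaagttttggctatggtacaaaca
Prelp: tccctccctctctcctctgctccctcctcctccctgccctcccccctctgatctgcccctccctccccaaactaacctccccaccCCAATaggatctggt
Ogn: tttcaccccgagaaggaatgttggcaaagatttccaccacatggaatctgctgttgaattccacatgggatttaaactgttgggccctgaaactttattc

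The 3 sequences that rose do not resemble each other in base content. Over the 250 bases before the start, GC content was 64.4% for Bgn, 55.6% for Prelp and 30% for Aspn, against a median of 52.4% over 32851 promoters. It was 42% for Ogn, 38.4% for Omd and 51.2% for Fmod. In those 250 bases Bgn had 3 GC boxes, the last 2 of which overlap, and such a box is found in 32.7% of all promoters. CCAAT was in Prelp and Aspn (33.8% of all promoters), and the letters TATAAA of the TATA box, searched on the same terms, were in Aspn and Ogn (12.4%). These TATAAA matches began 207 and 178 bases before the start in Aspn and 229 and 227 in Ogn, outside the bases printed above. The SMAD element CAGAC was in Fmod and Prelp (42.2%), and the AP-1 site TGANTCA was in none of the 6 (6.75%).

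Between depots, 7 of the 8 members were lower in BAT than in inguinal WAT in each genotype, against 29.7% of genes called lower in WT and 30.9% in KI. Depot coincides with the table and the depth of the libraries, so their parts cannot be told apart. In WT the log2 fold changes of BAT over inguinal WAT were -1.84 for Ogn, -1.74 for Bgn, -1.72 for Dcn, -1.65 for Lum, -1.63 for Prelp and -1.59 for Aspn, with adjusted p of 4.633e-06 or lower in edgeR. The highest BAT WT mouse for Lum, at 55.8 CPM, was just below the lowest HFD WT mouse at 57.4, while for Dcn the highest BAT WT mouse was at 296 and the lowest HFD WT mouse at 402. How many of all genes separated the depots fully was not counted either. In KI the log2 fold changes were -1.78 for Ogn, -1.62 for Bgn, -1.90 for Dcn, -1.03 for Lum, -1.64 for Prelp and -1.29 for Aspn. Fmod fell by 0.92 in WT (edgeR, adjusted p = 0.0065) and had -0.80 in KI (edgeR, adjusted p = 0.0173). Fmod in WT is a marginal call that was lost without the mice that stand apart, at -0.66 (edgeR, adjusted p = 0.0333). It was also lost when HFD WT mouse 1, 2 or 7 or BAT WT mouse 1, 2 or 3 was left out, with adjusted p of up to 0.0212 in edgeR, and the KI value was called without BAT KI mouse 4, at -1.05 (edgeR, adjusted p = 0.00365). Omd was called in KI (edgeR, adjusted p = 0.0001045), where BAT held 0 to 3 counts per mouse and inguinal WAT 11 to 37, so its fitted fold depends on the prior count; in WT it had -1.11 (edgeR, adjusted p = 0.0217). Fibroblast markers were also lower in BAT, with 10 of 13 called lower in WT and 9 of 13 in KI. The collagens had 10 of 11 called lower in each genotype. Leaving out the mice that stand apart, the 6 members other than Fmod and Omd lay between -1.67 and -1.41 for WT and between -2.03 and -1.115 for KI and were all called; in KI Fmod and Omd were called too. The part of the markers and collagens in the members' values was not tested.

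**Figure D5:**
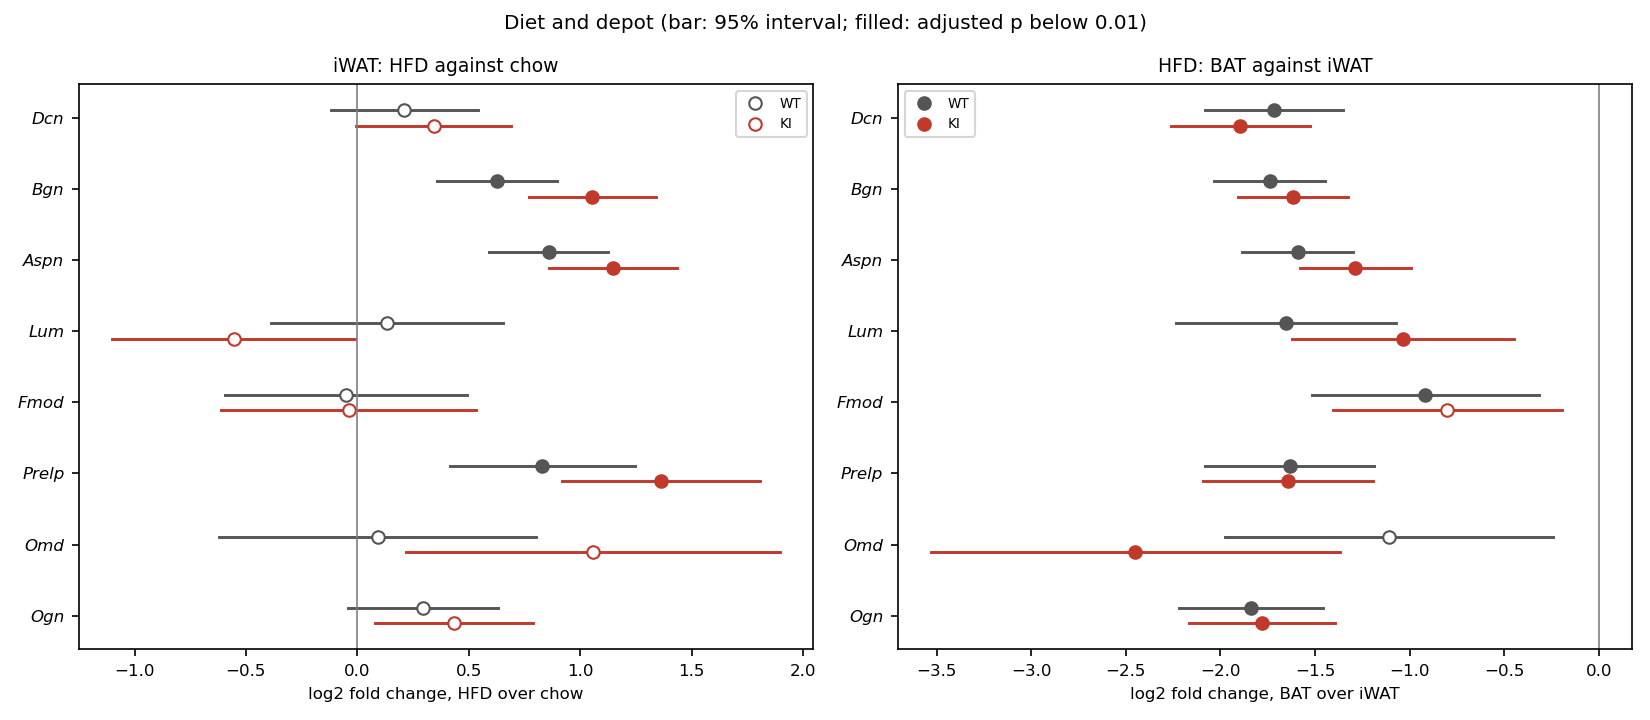
Log2 fold change of each member with its 95% interval, for HFD over chow in inguinal WAT (left) and BAT over inguinal WAT on HFD (right), in WT (grey) and KI (red); filled points passed adjusted p below 0.01. On the left Bgn, Aspn and Prelp are filled in both genotypes; on the right all points lie below 0.

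Between mice of 1 group the members varied together to different degrees. With group means removed, the correlation of log2 CPM over the 41 mice had a median Pearson r of 0.297 over the 28 pairs, and 26 were above 0. The closest pair was Lum and Dcn, neighbours on chromosome 10, with Pearson r = 0.75 and Spearman rho = 0.80 (permutation within groups, p = 1e-05 for each, the smallest that 100000 resamples can give, adjusted p = 0.00028). Without the 2 mice farthest from the median of Lum r was 0.75, and it was 0.74 in inguinal WAT and 0.78 in BAT. Dcn and Ogn followed, with r = 0.68 and rho = 0.67 (permutation, adjusted p = 7e-04 and 0.00056). Bgn and Ogn had r = 0.55 and rho = 0.57 (permutation, adjusted p = 0.00551 and 0.00252), with r = 0.29 in BAT. Lum and Ogn had r = 0.49 and rho = 0.58, and Prelp and Aspn r = 0.48 and rho = 0.44, both with adjusted p below 0.05 by permutation on either measure. The lowest was Fmod with Aspn, at r = -0.21. In the 30 mice left without those that stand apart, the median r was 0.222, 22 pairs were above 0, and r was 0.79 for Lum and Dcn, 0.79 for Dcn and Ogn and 0.71 for Lum and Ogn, but 0.19 for Prelp and Aspn. The points share library and depth. If some BAT and inguinal WAT columns came from 1 mouse, they would not be independent, and the permutation does not allow for that.

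Of all genes tested, those with the highest r to each member were listed, 3 per member. For Lum they were Fbln7 (0.77), Dcn (0.75) and Ctsk (0.72), and for Dcn they were Rnase4 (0.86), Lum (0.75) and Sfrp1 (0.71). For Ogn they were Selenop (0.70), Dcn (0.68) and Rnase4 (0.67), so Dcn and Ogn share Rnase4. For Bgn the nearest was Apod (0.75), before Klhl13 (0.73) and Tbc1d9b (0.71). For Fmod it was Cdc42se2 (0.74), before 4930474H06Rik (0.70) and Stk32c (0.69). For Aspn it was Cd302 (0.66), before Ttl (0.65) and Gm32618 (0.65). For Prelp it was Gm15851 (0.89), the opposite transcript, before Cd59a (0.86) and Rap1gap2 (0.86). For Omd it was Ecm2 (0.66), which lies beside Aspn on chromosome 13, before Slc2a13 (0.64) and Gm15530 (0.64).

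The genes that work with SLRPs in the matrix were followed as lists, with calls by edgeR. Of all genes tested on HFD, on chow and in BAT, edgeR called 5.24%, 1.22% and 0.475% lower. It called 1023 of 16471, 301 of 14629 and 180 of 13267 higher. An unadjusted p below 0.05 in edgeR was held by 32.9%, 24.5% and 24.4%, and DESeq2 called 14%, 6.69% and 4.67%. The counts in the lists below stand beside these shares, and no list was tested as a set. Of 11 fibrillar and associated collagens, which form the fibrils that SLRPs bind, those below 0 numbered 11 on HFD, 11 on chow and 10 in BAT, at median log2 fold changes of KI over WT of -0.36, -0.69 and -0.60. On HFD 1 collagen was called lower (Col5a2, -0.73) and on chow 2, the larger change being Col6a1 (-0.82). An unadjusted p below 0.05 was held by 9 of the 11 on HFD and 6 on chow, and DESeq2 called 3 and 5. In BAT 0 were called, with 9 at an unadjusted p below 0.05 and 1 called by DESeq2. Of the proteases that process SLRPs or their neighbours, 1 of 9 was called lower on HFD, the procollagen proteinase Tll1 (-0.90). None of 8 was called on chow, with 3 at an unadjusted p below 0.05 and 0 by DESeq2, and none of 5 in BAT, with 3 and 1.

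Of the enzymes that build the linkage region and the chondroitin or dermatan chains, 2 of 18 were called lower on HFD, led by the sulphotransferase Chst12 (-0.67). On chow 0 of 17 were called, with 8 at an unadjusted p below 0.05 and 4 by DESeq2, and in BAT 0 of 17, with 6 and 1. Of the keratan sulphate enzymes, which act on the chains of Lum and Fmod, 1 of 4 was called lower in BAT, the sulphotransferase Chst1 (-0.82). On HFD 0 of 5 were called, with 3 at an unadjusted p below 0.05 and 0 by DESeq2, and on chow 0 of 5, with 1 and 1.

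Among receptors that bind SLRP cores, Met was called higher (0.60) and Egfr lower (-0.73) of 8 tested on HFD. On chow 0 of 8 were called, with 2 at an unadjusted p below 0.05 and 0 by DESeq2, and in BAT 0 of 8, with 4 and 1. Of the TGF-β ligands and receptors, which Dcn and Bgn can bind, 1 of 6 was called higher on HFD (Tgfb3, 0.57), 0 of 6 on chow, with 1 at an unadjusted p below 0.05 and 0 by DESeq2, and 0 of 6 in BAT, with 0 and 0. Of 7 TGF-β target genes 1 was called higher on chow (Postn, 0.75). On HFD 0 were called, with 1 at an unadjusted p below 0.05 and 0 by DESeq2, and in BAT 0, with 2 and 2.

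Some of these calls changed without the mice that stand apart. On HFD Col5a2 (edgeR, adjusted p = 0.0109), Tll1 (0.0110), Chpf (0.0276) and Egfr (0.0425) were lost, and Chst12, Met and Tgfb3 were called. On chow Col6a1 (edgeR, adjusted p = 0.0177) and Col5a2 (0.0662) were lost, Postn was called, and Chpf2 (-0.52) and Gzmb (-2.63) joined. In BAT Chst1 was called, and Chst11 (0.83) and Fn1 (-0.94) joined. Dpt was lost on HFD (edgeR, adjusted p = 0.0231) and called on chow, and of the 3 markers in BAT Dpt and Pi16 were called and Clec3b was lost (edgeR, adjusted p = 0.0127). Of the adipocyte markers on HFD, Lipe and Adipoq were called, and Lep (edgeR, adjusted p = 0.0312) and Pnpla2 (0.0288) were lost. Cidea was lost on HFD (edgeR, adjusted p = 0.0103) and on chow (0.0505). Elovl3 (-2.42) joined on HFD, and Lep (-2.19) and Ppargc1a (1.73) joined in BAT.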

How the data were processed

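Bulk RNA was sequenced in 6 groups of inguinal WAT or BAT, with 41 columns of counts in all. According to the study's methods and the submitters' processing notes, the authors trimmed adapters with cutadapt, used STAR for the alignment of read pairs to GRCm38 and SAMtools for sorting, and obtained reads per gene from featureCounts; tool versions, annotation release and strand setting are not given in the sources used here. The deposited values are raw counts per gene in 3 tables, 1 per tissue and diet, with the 2 technical replicates of inguinal WAT on HFD already in 1 column per mouse. The tables also list a gene length, the same in all 3, which was used for CPM per kb.

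Where entries shared a symbol (200 did), only the first was used, leaving 52853 genes. KI was compared with WT in each table with the quasi-likelihood test of edgeR 4.0.16 in R 4.3.3 (TMM normalisation, filterByExpr, robust). Benjamini-Hochberg adjustment was over all genes tested. A call was an adjusted p below 0.01, the threshold that the study's methods give for DESeq2, which was its tool. The study's volcano plots mark genes at a stricter threshold, which was not used here. Interactions, diets and depots came from 1 fit of all 6 groups. CPM are on 1 TMM scale over all mice. SE were derived from the F statistic, and log2 CPM used a prior count of 1. Library sizes were the full totals, a choice made after the counts were seen, and recomputed sizes were tried as an alternative. DESeq2 1.42.0 (its Wald test), RLE size factors, no filter, a replicate block, other sets of groups, a threshold of 0.05 and leaving out each mouse were the other alternatives, and leaving out the 11 mice that stand apart was added after the data were seen. The tests were tested on simulated data with 200 changed genes. Counts give precision from counting only, and p-values measure the spread between these mice.

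The 8 members and the gene lists were chosen with earlier results of these data known. All 8 members are named in every comparison. For KI against WT, the called gene with the largest change in each direction is named for each other list described above. Calls in the lists not described are left out. For each member the 3 genes of highest correlation are named. Promoters and protein names came from RefSeq tables (GRCm38.p6) by symbol. Ccn2 was not analysed here.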

Additional observations from a re-analysis of the deposited data

Results flagged for a closer look

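Single mice lay far from the rest of their group in 8 of 108 sets examined (8 members and 10 other SLRP genes in 6 groups). Sets of Kera and Epyc with 0 counts in every mouse had no range and could not be flagged. Among sets with a range, chance alone sets apart about 1 in 20 if values are normally spread, which was not checked. The test compared the gap to the nearest mouse with the range of the group. Among the members, Lum was at 114 CPM in chow KI mouse 1, where the next KI mouse was at 40.3, and at 55.8 CPM in BAT WT mouse 5, where the next was at 27.2. Fmod was at 26.2 CPM in chow WT mouse 4, with the next at 9.74.

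The other sets were genes outside the 8 members. In chow WT mouse 4, Epyc was at 1.73 CPM (next 0.108) and Chad at 4.89 CPM (next 0.563). Tsku was at 181 CPM in chow KI mouse 1 (next 67.5). Podnl1 was at 5.36 CPM in HFD KI mouse 2 (next 1.31) and at 5.51 CPM in chow KI mouse 3 (next 1.49).

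The KI effect differed between groups for 2 of the other SLRP genes in the interaction tests of edgeR. For Tsku the log2 fold change of KI over WT on HFD minus that on chow was -2.73 ± 0.42 (SE, adjusted p = 0.0001845). For Podn the effect in BAT minus that in inguinal WAT was -2.15 ± 0.38 (SE, adjusted p = 0.0003749).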

How the results depend on the processing

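Of the members' fold changes recomputed under other settings, 1691 kept their direction and side of the threshold, 22 gained a call, 9 lost one and 53 reversed; the cause was not tested except where fewer mice or another threshold made the change. For KI against WT on HFD, the members called were 1 in edgeR, 2 in DESeq2 (Ogn joined Lum), 3 at the threshold of 0.05 (Ogn and Aspn joined) and 1 to 2 with each mouse left out (Ogn joined without WT mouse 1). On chow they were 0 in edgeR, 2 in DESeq2, in 1 fit of all 6 groups and at 0.05 (Bgn and Aspn each time), and 0 to 1 with each mouse left out (Aspn without WT mouse 1 or WT mouse 4). In BAT they were 0, 1 in DESeq2 (Dcn) and 2 at 0.05 (Lum and Dcn). For HFD against chow in KI they were 3 and, at 0.05, 5. The reversals concerned values near 0. Without the mice that stand apart, the difference between the diets was -0.38 for Fmod and -0.088 for Ogn, that between the depots -0.20 for Fmod and -0.19 for Ogn, and HFD over chow in WT 0.27 for Fmod and -0.046 for Omd. With no filter, Fmod was at 0.002315 for HFD over chow in KI. With each mouse left out, Bgn ran from -0.14 to 0.039 and Aspn from -0.13 to 0.088 in BAT, the diet difference of Fmod from -0.37 to 0.20, the depot differences from -0.13 to 0.24 (Fmod), -0.052 to 0.15 (Ogn) and -0.13 to 0.12 (Prelp), and HFD over chow from -0.17 to 0.34 (Fmod) and -0.073 to 0.23 (Omd) in WT and from -0.20 to 0.15 (Fmod) in KI.

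The sources used here do not say whether columns with the same number were paired. Deviations of WT and KI mice with the same number correlated at -0.262 to 0.646 on HFD (2 of 8 above 0.1), -0.212 to 0.184 on chow (1 of 6) and -0.138 to 0.318 in BAT (3 of 6). Those of HFD inguinal WAT and BAT columns with the same number correlated at -0.0746 to 0.24 in WT (3 of 6 above 0.1) and -0.153 to 0.131 in KI (3 of 6). With the replicate block, the depot differences of Fmod and Prelp became -0.090 and 0.048, Fmod for HFD over chow became 0.030 in WT and 0.043 in KI, and 2 calls were lost, Prelp for HFD over chow in WT (adjusted p = 0.02434) and Fmod for BAT over inguinal WAT in WT (adjusted p = 0.03299); the calls of KI against WT kept their side.

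Counts over all genes moved more. On HFD 1886 genes were called, 1242 in 1 fit of all 6 groups and 3448 at 0.05. On chow 479 were called, 1107 in DESeq2, 119 with the block, 1088 in 1 fit of all 6 groups, 1263 at 0.05 and 285 to 509 with each mouse left out. In BAT 243 were called, 717 in DESeq2, 835 in 1 fit of all 6 groups, 952 at 0.05 and 134 to 313 with each mouse left out. The diet difference held 144 calls, 358 in DESeq2, 87 with no filter, 12 with the block, 18 without the mice that stand apart, 439 at 0.05 and 61 to 269 with each mouse left out. The depot difference held 399, 731 in DESeq2, 265 with no filter, 180 with the block and 1118 at 0.05. HFD against chow in KI held 5024, and 2435 without the mice that stand apart. Sizes recomputed from the filtered genes left the members' calls as they were.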

Other observations

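Beyond the 8 members, 4 further SLRP genes differed between KI and WT. Podn, which encodes podocan, ran from 40.5 to 93.4 CPM in HFD WT inguinal WAT (median 65.6) and from 88.9 to 199 in KI (median 142), a log2 fold change of 1.13 ± 0.18 (SE; edgeR, adjusted p = 0.0002246). In BAT the same gene ran from 19.5 to 30.3 CPM in WT (median 28.4) and from 6.70 to 16.7 in KI (median 14.0), a log2 fold change of -1.06 ± 0.19 (edgeR, adjusted p = 0.003548). The groups of Podn did not overlap in BAT, where every KI mouse was lower, as for 1.05% of genes tested. In inguinal WAT on HFD only the lowest KI mouse met the WT range. On chow the Podn medians were 130.5 CPM in WT and 114 in KI, and the gene was not called (edgeR, adjusted p = 0.6726). Optc, which encodes opticin and lies beside Prelp, ran from 4.89 to 11.8 CPM in HFD WT (median 9.22) and from 2.36 to 4.79 in KI (median 3.81), a log2 fold change of -1.23 ± 0.18 (edgeR, adjusted p = 5.439e-05). The 8 KI mice of Optc were all below the 8 WT mice, as they were for 2.43% of genes tested. The Optc medians were 3.73 CPM in WT and 3.46 in KI on chow, where it was not called (edgeR, adjusted p = 0.5502), and 0.596 and 0.652 in BAT, where it was not tested.

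Tsku, which encodes the secreted protein tsukushi, ran from 5.29 to 10.1 CPM in chow WT (median 7.67) and from 31.9 to 181 in chow KI (median 61.3), a log2 fold change of 3.24 ± 0.35 (edgeR, adjusted p = 0.0001331). On HFD the ranges were 11.2 to 16.6 CPM in WT (median 13.9) and 10.6 to 33.8 in KI (median 19.6), and in BAT 18.0 to 40.3 in WT (median 32.6) and 38.3 to 224 in KI (median 97.9). The chow groups of Tsku were thus far apart and the HFD groups overlapped. In BAT DESeq2 called Tsku and edgeR did not, and on HFD neither called it. Ecm2, the neighbour of Aspn, ran from 10.5 to 15.6 CPM in chow WT (median 12.0) and from 5.25 to 8.54 in chow KI (median 7.38), a log2 fold change of -0.83 ± 0.15 (edgeR, adjusted p = 0.003092). On HFD the Ecm2 medians were 19.6 CPM in WT and 15.2 in KI and in BAT 9.44 and 9.28, with no call. Without the mice that stand apart Podn was called on HFD (1.23) and in BAT (-1.08), Optc on HFD (-0.97) and Tsku on chow (2.73), and Ecm2 was not (edgeR, adjusted p = 0.0272). Of other matrix proteoglycans and their link proteins, 3 of 9 were called lower on HFD, led by Hapln4, and 1 higher (Esm1, 1.67). On HFD 5.24% of all genes were called lower and 1023 of 16471 higher, and the other shares are those given with the lists above. Hapln4 had 15 to 80 counts in HFD WT and 0 to 6 in HFD KI, so its fitted log2 fold change of -3.99 depends on the prior count. On chow edgeR called 0 of 6 of these genes, with 4 at an unadjusted p below 0.05 and 1 by DESeq2, and in BAT 0 of 5, with 1 and 0. Of cell-surface proteoglycans, 2 of 10 were called lower on HFD, led by Gpc3 (-0.96), and 1 higher (Sdc4, 0.77), and on chow 1 of 8 was called lower (Sdc2, -0.48). In BAT 0 of 8 were called by edgeR, with 4 at an unadjusted p below 0.05 and 0 by DESeq2. Without the mice that stand apart Hapln3, Esm1 and Sdc2 lost their calls (edgeR, adjusted p = 0.0127, 0.0288 and 0.0467).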
